A study of Cochliomyia hominivorax with 18 samples.

Results

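Larval midguts collected after rearing with tetracycline (post-Tc) were compared with larval midguts from before it (control), as 3 libraries against 3 of the 18 libraries sequenced. The libraries were chosen by the stage and treatment in their labels, not by any measured value. The animals were production flies of the New World screwworm, Cochliomyia hominivorax, and the question was whether an antibiotic-fed rearing leaves a lasting mark on the gut. The post-Tc group was taken once rearing with tetracycline had ended and the control group before it began, so time of collection and treatment cannot be told apart. Both groups are poly(A)-selected RNA of larval midgut. The main fits also held 3 libraries of larvae still on tetracycline (on-Tc), which share the estimate of spread. Adult midguts were used for a comparison between the stages. No source used here gives the strain, larval age, dose and duration, or whether a library pooled several guts. Nothing ties the replicate numbers 1 to 3 to separate animals, cultures or batches, so the p-values reflect the spread of the libraries in each fit, which may be technical.

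The larvae of this fly are flesh-eating parasites of living mammals, and their midgut digests blood and tissue protein, takes up the products and meets the bacteria of the wound. Tetracycline stops bacterial ribosomes and can also slow protein synthesis in mitochondria, whose ribosomes resemble bacterial ones. In insect rearing it is used to hold conditional lethal transgenes silent until it is left out of the diet. The deposited table gives predicted transcripts by number (such as g1590.t1) without gene names, positions or sequences. Roles and midgut markers could therefore not be looked up, and transcripts are described by their values. In bulk tissue, fewer cells of a type and less RNA per cell cannot be told apart.

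Library totals were 41502887, 58865469 and 30994870 counts in post-Tc larvae, against 55505233, 55019148 and 78052370 in control larvae. Post-Tc 1 and post-Tc 3 were shallower than every control. The table lists 22420 transcripts, of which 11584 passed the filter on low counts in the 9 larval libraries. Levels are given as CPM, read counts relative to library size with trimmed-mean (TMM) scaling factors.

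The post-Tc libraries differed from each other as much as they differed from controls. Over the transcripts tested, the median difference between 2 libraries was 1.35-fold to 1.68-fold within post-Tc (3 pairs), 1.21-fold to 1.43-fold within control (3 pairs) and 1.27-fold to 1.57-fold between the groups (9 pairs). Every post-Tc library had a control as its nearest library among these 6. Post-Tc 1 and post-Tc 2 each lay 1.27-fold from control 2, closer than the 1.35-fold between them. Post-Tc 3 lay 1.33-fold from control 3, against 1.504-fold from post-Tc 1 and 1.68-fold from post-Tc 2. The share of transcripts more than 2-fold apart ran from 13.2% between control 1 and control 3 to 38.0% between post-Tc 2 and post-Tc 3. The median standard deviation of log2 CPM was 0.51 within post-Tc and 0.38 within control, and it was larger in post-Tc for 63.1% of transcripts.

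**Figure D1:**
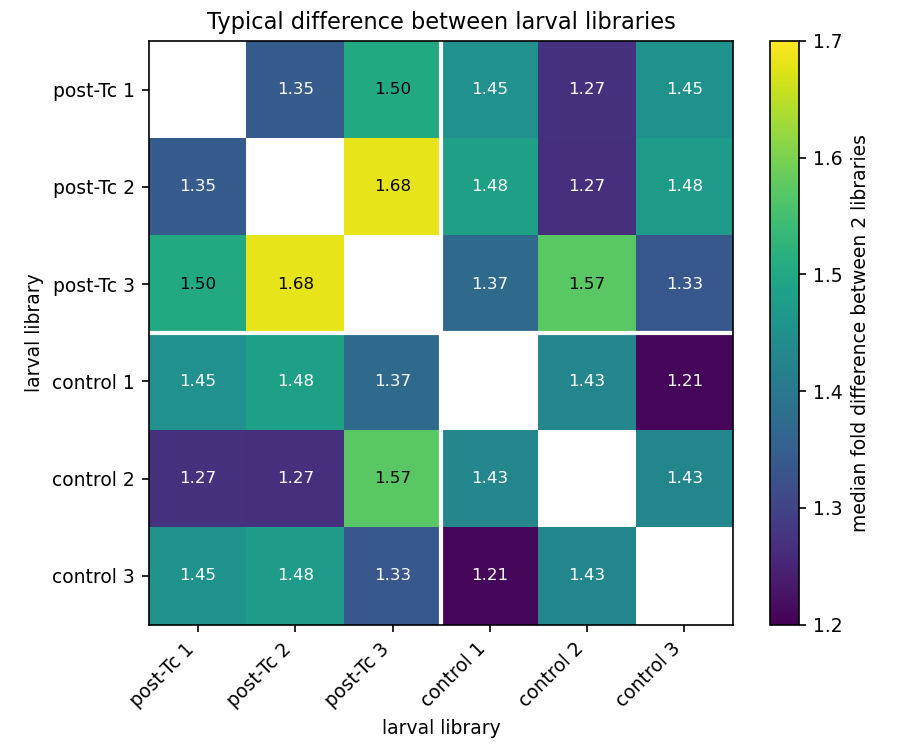
Each cell gives the median fold difference between 2 larval libraries over the 11584 transcripts tested, with post-Tc libraries above and left of the white lines and controls below and right. Post-Tc 1 and 2 are closest to control 2 (1.27), and the widest gap is between post-Tc 2 and post-Tc 3 (1.68).

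The same 3 libraries (post-Tc 1, post-Tc 2 and control 2) stood apart on the first principal component of the 9 larval libraries, which held 33.1% of the variance. Their scores were 44.9, 68.2 and 58.4, while post-Tc 3 stood at -55.4 and control 1 and control 3 at -14.6 and -17.7. Results below are therefore also given within each side of this division where single transcripts are described.

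No transcript passed the test between post-Tc and control larvae. By edgeR's quasi-likelihood test 0 of 11584 transcripts (0%) had an FDR under 0.05. The smallest FDR was 0.344 and the next was 0.9998. An unadjusted p under 0.05 was found for 276 transcripts, 2.38% of those tested, with 117 higher (1.01%) and 159 lower (1.37%) in post-Tc larvae. If no transcript differed, 5% would be expected at this threshold. Scaling by library totals alone, which moved the median log2 difference of all transcripts by -0.14, turned that split into 70 higher and 232 lower. The 276 became 667 without post-Tc 3, 630 without control 2 and 451 without post-Tc 2, and edgeR still called 0. DESeq2 called 5 transcripts (0.0432%), 2 higher and 3 lower, with 424 at an unadjusted p under 0.05; with a library left out it called 1 (without post-Tc 1) to 44 (without control 2). By contrast, limma-voom called 0, with an FDR of 0.707 at the lowest and 275 transcripts at an unadjusted p under 0.05. The 3 post-Tc libraries lay wholly above or wholly below the 3 controls for 762 transcripts (6.58%), 375 higher (3.24%) and 387 lower (3.34%), or 177 higher and 496 lower with library totals alone. With 3 libraries against 3 an exact permutation test cannot go below p = 0.1 for any single transcript (two-sided). That 0.1 is the share of the 20 possible splits that separate the groups wholly. It is also the share of separated transcripts to expect from interchangeable libraries, and 6.58% did not exceed it. That comparison holds for all 6 libraries only. With a library left out the expected share is higher, because fewer splits are possible. The observed share was then 10.6% without post-Tc 1, 22.4% without post-Tc 2 or post-Tc 3, and 22.8% without control 2. Fitted differences were mostly small, at a median of 1.19-fold, and 90% of transcripts lay within 1.86-fold. Of the 11584 transcripts, 327 were higher by 2-fold or more and 600 were lower by that much, and edgeR called 0 of these. The median fitted difference was 1.43-fold in the scarcest of 4 equal classes by mean log2 CPM and 1.14-fold in the most abundant. Whether the balance of 327 and 600 depends on depth, scaling or single libraries was not tested.

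**Figure D2:**
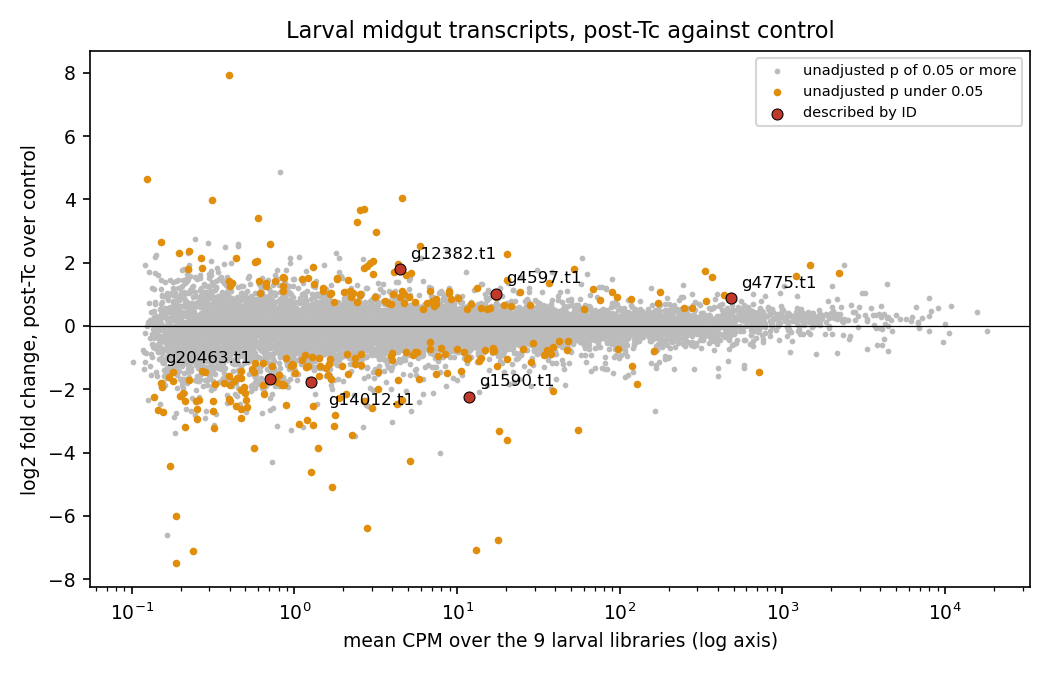
Each point is 1 of 11584 larval midgut transcripts, with its mean CPM over 9 larval libraries on a log axis and its log2 fold change of post-Tc over control. Orange points have an unadjusted edgeR p under 0.05 (276), none passed an FDR of 0.05, and the 6 red points are the transcripts whose differences are described 1 by 1.

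The transcript ranked first by p, g1590.t1, was low in every post-Tc larval library. It had 5.44, 5.63 and 4.88 CPM in post-Tc larvae, against 26.7, 32.2 and 16.1 CPM in control larvae, from 133 to 337 counts and 1293 to 1674 counts per library. The groups did not overlap, as the rule of choice required. The lowest control was 2.86-fold above the highest post-Tc library, and the post-Tc values lay within 1.15-fold of each other. The fitted log2 difference was -2.23 ± 0.29 (SE), 4.69-fold lower in post-Tc larvae (95% interval 2.98-fold to 7.40-fold). It had an unadjusted p of 2.97e-05 and an FDR of 0.344 by edgeR, 0.707 by limma-voom and 2.15e-08 by DESeq2. With each of the 6 libraries left out in turn, DESeq2 called it in 6 of 6 fits (FDR 5.06e-15 to 0.000114) and edgeR in 0 of 6 (FDR 0.143 to 1), with a log2 difference between -2.46 and -2.01. Larvae still on tetracycline (on-Tc), which are compared with the same controls, had 5.26, 5.92 and 4.67 CPM, below every control and across the post-Tc range. Like the transcripts described next, g1590.t1 was picked by its larval difference, so the sizes and intervals given are biased by that choice.

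A pair of scarcer transcripts was also lower in all post-Tc libraries. The level of g20463.t1 was 0.352, 0.334 and 0.330 CPM in post-Tc larvae, against 1.13, 1.22 and 0.946 CPM in control larvae. These levels rest on 9 to 20 counts per post-Tc library and 61 to 76 counts per control library. The lowest control was 2.69-fold above the highest post-Tc library, and the fitted log2 difference was -1.69 ± 0.36 (SE; edgeR FDR 0.9998, DESeq2 FDR 0.0375). The DESeq2 call was lost whichever of the 6 libraries was left out (FDR 0.0775 to 0.477). On-Tc larvae had 0.646, 0.723 and 0.727 CPM, between the other groups with no overlap. The level of g14012.t1 was 0.460, 0.551 and 0.660 CPM in post-Tc larvae, against 1.54, 1.58 and 2.59 CPM in control larvae. Its log2 difference was -1.77 ± 0.39 (SE; edgeR FDR 0.9998, DESeq2 FDR 0.0347). DESeq2 called it in 2 of 6 fits with a library left out; the call was lost without post-Tc 1 (FDR 0.490), post-Tc 2 (0.231), control 1 (0.0597) or control 3 (0.334). Its on-Tc levels were 1.63, 1.15 and 1.26 CPM, above all post-Tc libraries and partly within the control range.

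Among the 3 of these 6 transcripts with higher levels in post-Tc larvae, g4775.t1 was the most abundant. It had 691, 760 and 619 CPM in post-Tc larvae, against 355, 415 and 350.2 CPM in control larvae. The groups were apart by 1.49-fold at the closest, and the fitted difference was 1.85-fold (95% interval 1.31-fold to 2.60-fold; edgeR FDR 0.9998, DESeq2 FDR 0.00171). DESeq2 called it in 2 of 6 fits with a library left out; the call was lost without post-Tc 1 (FDR 0.220), post-Tc 2 (0.106), control 1 (0.126) or control 3 (0.184). In on-Tc larvae it had 370.3, 353 and 432 CPM, overlapping the controls and below all post-Tc libraries. The level of g12382.t1 was 7.64, 8.45 and 5.03 CPM in post-Tc larvae, against 2.68, 1.84 and 1.54 CPM in control larvae. Its fitted difference was 3.49-fold (95% interval 1.85-fold to 6.58-fold; edgeR FDR 0.9998, DESeq2 FDR 0.0375). Its DESeq2 call was lost without post-Tc 1 (FDR 0.490), post-Tc 2 (0.294), control 2 (0.0712) or control 3 (0.356) and held in the other 2 of 6 fits. Its on-Tc levels of 5.87, 4.70 and 2.45 CPM overlapped both groups. The level of g4597.t1 was 27.6, 24.7 and 20.6 CPM in post-Tc larvae, against 10.02, 15.3 and 10.8 CPM in control larvae. It was 2.02-fold higher (95% interval 1.38-fold to 2.95-fold; edgeR FDR 0.9998) and passed neither DESeq2 (FDR 0.117; 0.00129 without control 2) nor limma-voom (FDR 0.9997). Its on-Tc levels, 13.3, 16.6 and 16.3 CPM, lay below all post-Tc libraries, with on-Tc 1 within the control range and on-Tc 2 and on-Tc 3 above every control.

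**Figure D3:**
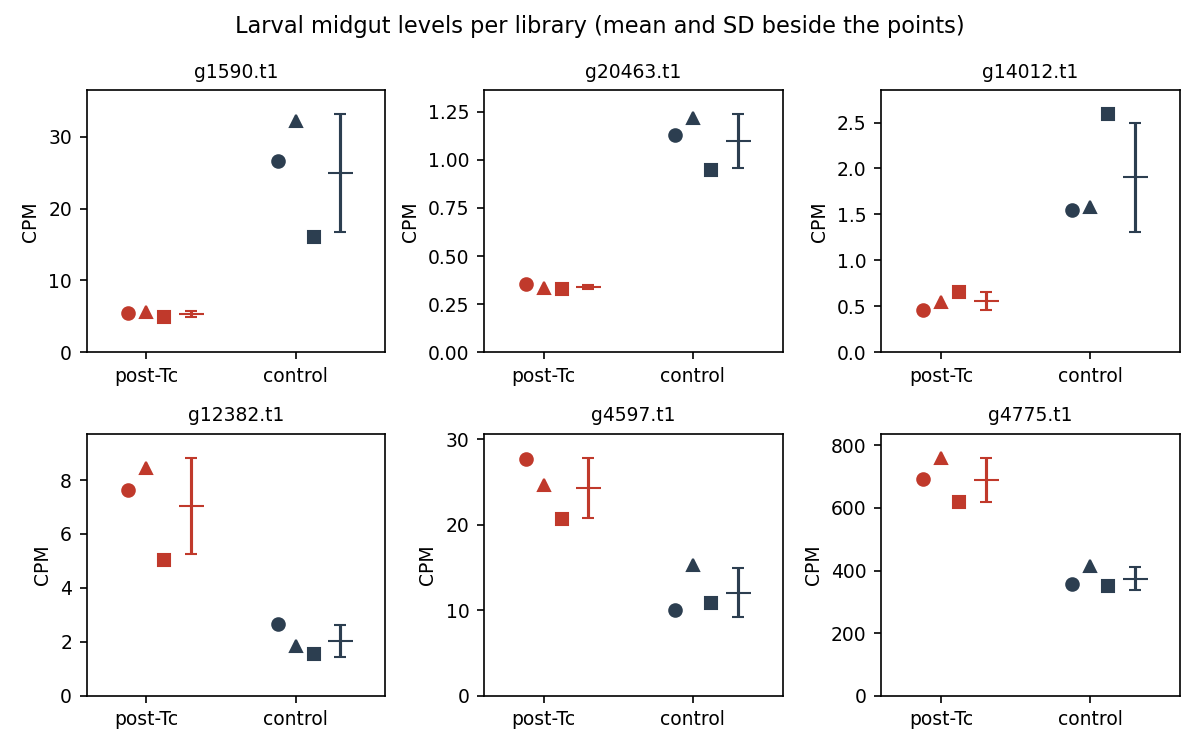
Larval midgut CPM of 6 transcripts in 3 post-Tc (red) and 3 control (dark) libraries, with circles, triangles and squares for replicates 1, 2 and 3, and mean and SD beside the points. The groups do not overlap in any panel; these transcripts were picked for that or for a DESeq2 call, and g1590.t1 has post-Tc values of 4.88 to 5.63 CPM against 16.1 to 32.2 CPM in controls.

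The 6 transcripts had groups that did not overlap, which fixes their direction in any subset of the libraries, so the values within each side of the division among the libraries describe size only. Post-Tc 1 and post-Tc 2 together against control 2 gave 5.81-fold lower levels of g1590.t1, and post-Tc 3 against control 1 and control 3 gave 4.38-fold lower levels. For g20463.t1 these values were 3.55-fold and 3.14-fold lower, and for g14012.t1 3.12-fold and 3.13-fold lower. For g4775.t1 both were 1.75-fold higher. For g4597.t1 they were 1.71-fold and 1.98-fold higher, and for g12382.t1 4.38-fold and 2.38-fold higher. A digit in the library names, whose meaning is not given, was 1 in all 3 controls and in post-Tc 2, and 2 in post-Tc 1 and post-Tc 3. With this digit as a covariate DESeq2 called g1590.t1 (FDR 0.00155) and none of the other five (FDR 0.199 to 0.466).

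Among scarce transcripts whose groups did not overlap, more were lower than higher in post-Tc larvae, beside a lower mean number of transcripts detected. The transcripts tested were put into 4 equal classes by mean log2 CPM over the 9 larval libraries. Ranges of mean CPM overlapped between classes, with up to 17.9 CPM in the scarcest and from 1.23 CPM in the second. In the scarcest class (2896 transcripts), 171 lay wholly below the controls and 82 wholly above, together 8.74% of the class, against 6.58% of all transcripts tested (3.34% below and 3.24% above). In the most abundant class, also of 2896, 42 lay below and 96 above, together 4.77%. Neither class exceeded the share of 0.1 expected from interchangeable libraries. The balance in the scarcest class turned to 317 below and 364 above without post-Tc 3. That was 23.5% of the class, against 22.4% of all transcripts tested, as whole separation is easier with a library left out. When libraries were scaled by totals alone, the balance in the most abundant class turned to 71 below and 30 above. Together these were 3.49% of the class, against 5.81% of all transcripts tested. Thinned to the smallest larval total, the libraries were expected to show 14127, 14224 and 13030 transcripts in post-Tc larvae, against 14576, 14550 and 14099 in control larvae. The difference in means was -615, which did not exceed the spread between libraries (exact permutation test, two-sided, p = 0.3), and -233 without post-Tc 3. In raw counts not scaled for depth, 16 of 22420 listed transcripts were absent from all post-Tc libraries, with 3 to 119 counts in each control. The reverse, at least 3 counts in each post-Tc library and none in controls, was found for 0 transcripts. Of the 16, 15 were below the filter on low counts, and 0 had 10 or more counts in every control. A count of 0 allows up to 3 counts, or 0.0501 to 0.110 CPM in the post-Tc libraries. The part of detection and depth in these counts was not tested.

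The most abundant larval transcripts varied by several fold between libraries of a group. First by mean level was g12854.t1, with 36168, 10014 and 17538 CPM in post-Tc larvae, against 7103, 39275 and 24847 CPM in control larvae. Its highest library was 3.61-fold above its lowest within post-Tc and 5.53-fold within control, and the fitted difference between groups was 1.12-fold lower in post-Tc larvae (95% interval 3.13-fold lower to 2.51-fold higher). The second, g11374.t1, had 18534, 6627 and 30459 CPM in post-Tc larvae, against 8625, 16060 and 16621 CPM in control larvae. The third, g10912.t1, had 12092, 21073 and 12490 CPM in post-Tc larvae, against 8832, 13007 and 7787 CPM in control larvae. In these transcripts the groups overlapped, with exact permutation p-values of 0.8, 0.6 and 0.3 (two-sided). The 10 most abundant transcripts of each library took 13.01% ± 1.69 of counts in post-Tc larvae and 12.46% ± 3.53 in control larvae (SD, n = 3 each; exact permutation p = 0.9).

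How large a difference the libraries could have hidden depended on abundance. The 95% interval of the fold change lay wholly within 2-fold either way for 4068 transcripts (35.1%) and wholly within 4-fold for 8882 (76.7%). In the scarcest of the 4 classes, at a median of 0.461 CPM, 0.898% of intervals lay within 2-fold. The share was 25.2% in the second class (median 4.04 CPM), 56.8% in the third (18.4 CPM) and 57.6% in the most abundant (90.9 CPM). Within 4-fold the shares were 39.5%, 81.8%, 93.3% and 92.1%. The median interval thus extended 3.10-fold to either side in the scarcest class and 1.63-fold in both upper classes, so the most abundant class was no more precise than the third. These intervals are not adjusted for the number of transcripts. Where an interval reached past 2-fold or 4-fold, a difference of that size was not excluded for that transcript.

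**Figure D4:**
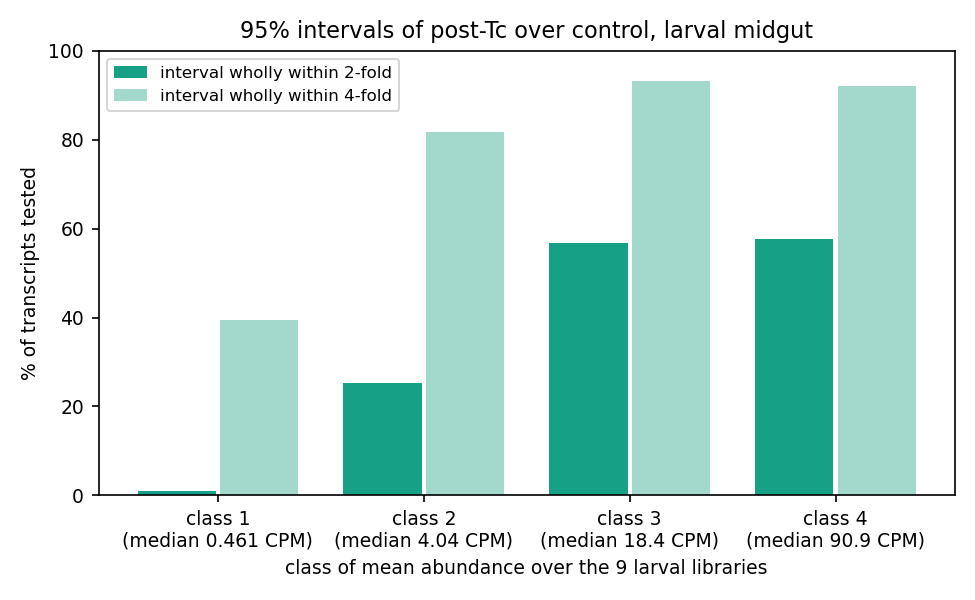
Bars give the percent of tested transcripts whose 95% interval of post-Tc over control lay wholly within 2-fold (dark) or 4-fold (light) either way. The 4 classes of mean abundance were cut by mean log2 CPM over the 9 larval libraries. The 2-fold share is 0.898% in class 1, the scarcest, and 57.6% in class 4.

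Some transcripts with neighbouring gene numbers differed together. Among 11513 gene numbers tested, 11 pairs that follow each other in the tested order had an unadjusted p under 0.05 in the same direction (4 higher, 7 lower). Of all transcripts tested, 1.01% were higher and 1.37% lower at that threshold. The number of pairs to expect from these shares was not worked out. Of these pairs, 6 have consecutive numbers and 5 have untested numbers between them. There were 2 longer runs of consecutive numbers, both higher in post-Tc larvae and both picked out after their values were seen. Each run fills adjoining lines of the deposited table, though the sources used here do not say whether numbers follow the genome. The run of 3, gene numbers 12382 to 12384, holds g12382.t1, described above. Its neighbour g12383.t1 had 5.77, 6.71 and 9.54 CPM in post-Tc larvae, against 3.82, 4.65 and 3.24 CPM in control larvae, without overlap. The last, g12384.t1, had 162, 106.9 and 48.0 CPM in post-Tc larvae, against 23.9, 71.2 and 45.5 CPM in control larvae, and the groups overlapped. The run of 4, gene numbers 10961 to 10964, rested on post-Tc 3. Its first member, g10961.t1, had 1.79, 1.80 and 31.4 CPM in post-Tc larvae, against 2.10, 2.40 and 1.49 CPM in control larvae, and post-Tc 3 was likewise the highest of the 6 libraries for the other members. All 7 had an edgeR FDR of 0.9998.

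The balance of predicted transcripts within genes was testable in few cases. The table lists 1015 gene numbers with more than 1 transcript, but 68 of them had 2 or more transcripts past the filter. In 0 of the 68 (0%) did the balance differ between post-Tc and control larvae at an FDR of 0.05 by edgeR's transcript usage test; the smallest gene-level FDR was 0.983, and 0 had an unadjusted p under 0.05.

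Whether the larval differences departed from those of adult midguts was tested as post-Tc minus control in larvae, minus the same difference in adults (3 post-Tc and 3 control adult libraries; 18 libraries in the fit). Of 12599 transcripts, 0 (0%) passed edgeR's test, the lowest FDR being 0.842. An unadjusted p under 0.05 was found for 655 (5.2%), against 5% expected if no transcript differed. By DESeq2 6 passed, none of them among the 6 described above, and limma-voom called 0 (587 at an unadjusted p under 0.05). In adults g1590.t1 had 34.7, 50.0 and 50.2 CPM in post-Tc, against 41.8, 74.2 and 23.4 CPM in controls, and the groups overlapped. Its adult log2 difference was -0.05 (95% interval -0.77 to 0.67), and the larval minus adult difference was -2.17 (95% interval -3.20 to -1.13; unadjusted p 0.000459, edgeR FDR 0.941). The adult difference of g20463.t1 did not pass the test either (edgeR FDR 0.755). In adults it had 36.1, 6.01 and 16.3 CPM in post-Tc, against 1.27, 9.49 and 4.36 CPM in controls, a log2 difference of 1.94 (95% interval 0.62 to 3.27) with overlapping groups, and the larval minus adult difference was -3.61 (edgeR FDR 0.941). Both transcripts were picked by their larval difference, which is part of the larval minus adult difference. The size, interval and p-value of the latter are therefore biased by that choice. The abundant larval transcript g4775.t1 was scarce in adults, at 0.290 ± 0.133 CPM in post-Tc and 0.316 ± 0.147 CPM in controls (SD, n = 3 each). Adult differences of g14012.t1, g12382.t1 and g4597.t1 had intervals that included 0.

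**Figure D5:**
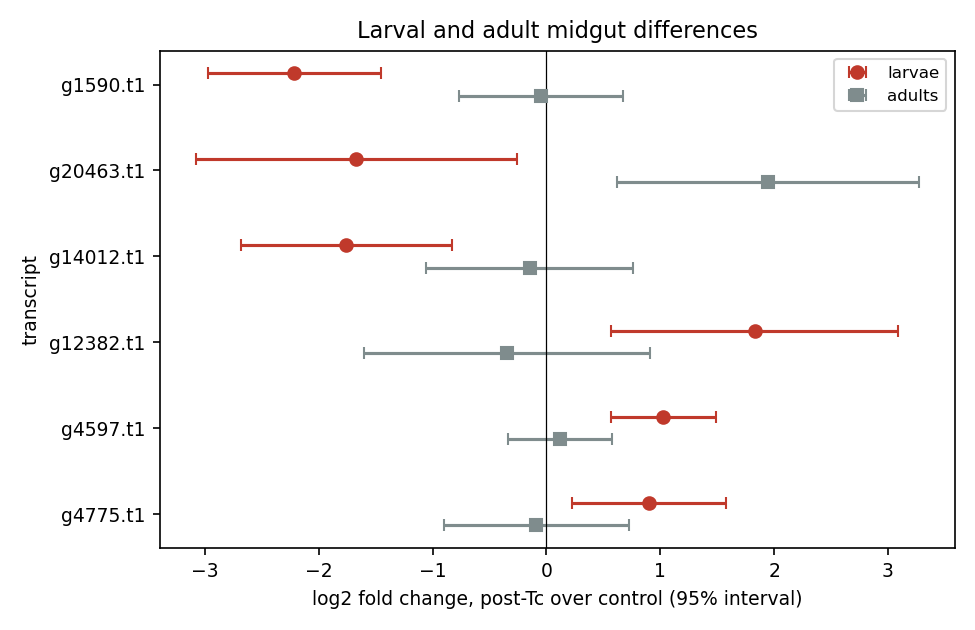
Log2 fold change of post-Tc over control with its 95% interval for 6 transcripts, in larvae (red circles) and adults (grey squares), from the fit of 18 libraries. Larval intervals lie to 1 side of 0 in transcripts that were picked in larvae; the adult intervals include 0 except for g20463.t1, at 1.94.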

How the data were processed

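The authors deposited 1 table of raw counts per predicted transcript for 18 midgut libraries; the unit was judged from whole numbers and unequal column sums. Per the submitters' processing notes, Trimmomatic, STAR, featureCounts and DESeq2 were used, without versions or roles. No source used here gives the genome build, annotation, strand setting or pair counting. Larval libraries had 64.0% to 70.7% even values among counts of 1 to 20, so halved counts were tried.

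The fits used edgeR 4.0.16 under R 4.3.3 (filterByExpr, minimum count 10 and total 15; TMM; quasi-likelihood F-test; Benjamini-Hochberg FDR under 0.05) on the 9 larval libraries with a mean per group, and on all 18 for the larval minus adult difference. Intervals come from the F statistic; log2 CPM used a prior count of 2. DESeq2 1.42.0 and limma-voom (limma 3.58.1) were alternatives, with other scalings, filters, covariates, sample sets and left-out libraries. DESeq2 with libraries left out, the digit or the block was added after seeing the data. Fits were tested on simulated data.

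IDs were taken by a rule: the 2 smallest p-values per direction among transcripts whose groups did not overlap, and the 3 most abundant. The other DESeq2 calls (g4775.t1, g14012.t1) and the runs were named after their values were seen. The comparison and rules were chosen with earlier results of these data known. The floor of 3 counts covers counting error only, because PCR copies were not told apart by molecular identifiers. Gene lists for immunity, digestion, detoxification, mitochondria and other tissues were not tested, because no names were at hand. All per-sample columns were used. A chi-square test of counts gave 356 to 1312 per degree of freedom for pairs of the 6 libraries, so no pair was treated as repeats of 1 library.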

Additional observations from a re-analysis of the deposited data

How the results depend on the processing

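EdgeR called 0 transcripts between post-Tc and control larvae under every alternative run with 2 or more libraries per group, including each left-out library. Limma-voom also called 0, but it was run for this comparison in a single setting, with no library left out. Calls came from DESeq2 only. DESeq2 called 5 transcripts, 6 when the library-name digit was a covariate, 4 with the replicate block, and 1 to 44 with a library left out (1, 8 and 14 without post-Tc 1, 2 and 3, and 8, 44 and 3 without control 1, 2 and 3); for the larval minus adult difference it called 6. The count at an unadjusted p under 0.05 (276 in edgeR) was 424 in DESeq2, 433 without a filter on low counts, 430 with the first larval principal component as a covariate and 470 without control 2, post-Tc 1 and post-Tc 2, a fit with a single post-Tc library assumed to vary like the other groups. It ranged from 199 to 667 with a library left out, and was 451 without post-Tc 2, 667 without post-Tc 3 and 630 without control 2; the cause was not tested. The split by direction, 117 higher and 159 lower, turned to 350 higher and 280 lower without control 2. Intervals within 2-fold, 4068 in all, numbered 2107 with the digit as a covariate, 1167 without those 3 libraries (fewer samples), and 2746 to 3161 with a library left out. The difference in the share of the 10 most abundant transcripts, 0.553 percentage points, ran from -1.19 without control 1 to 2.33 without control 2, and was -0.158 without post-Tc 1. The difference in transcripts detected at equal totals ran from -830 to -233 with a library left out. No gene passed for transcript usage under any alternative run. The 6 transcripts in the plot of levels had groups that did not overlap, so their direction under the alternatives is no sign of stability. Same-numbered post-Tc and control libraries did not deviate together in every case (correlations across transcripts of -0.05, 0.30 and 0.35 for numbers 1, 2 and 3), so the numbers were not taken as pairs; with the replicate block edgeR called 0 transcripts, 190 had an unadjusted p under 0.05, DESeq2 FDRs were 1.51e-08 for g1590.t1, 0.000305 for g12382.t1, 0.303 for g20463.t1, 0.237 for g4775.t1 and 0.158 for g14012.t1, and post-Tc 1 resembled control 2 rather than control 1. Intervals were widest in the scarcest class; with all counts halved, 4059 intervals lay within 2-fold.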
